A study of Drosophila melanogaster with 2 samples.

Results

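Of the 2682 binding peaks of the transcription factor Single-minded (Sim) in the optimal list of the study, 934 overlapped by at least 1 bp a peak of exactly one replicate's thresholded list. Replicate 1 alone supplied 198 of them, 7.38% of the optimal list, and replicate 2 alone supplied 736, or 27.4%. Both replicate lists overlapped a further 827 optimal peaks and neither list overlapped 921. Membership was thus selected on the calls themselves, so its numbers and the signal values behind them are descriptions. Each direction rests on 1 library, and no test between the directions was made.

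Chromatin immunoprecipitation followed by sequencing was done on whole Drosophila melanogaster embryos of the strain sim-GFP, aged 0 to 24 h, with sex not recorded. Both samples carried an insertion encoding Sim fused to eGFP, were precipitated with an antibody against GFP (although the labels list sim as the antibody), and are labelled biological replicates 1 and 2 of 1 group. They share the same donor line in the labels, no untagged or untreated group was included, and the control experiment named in the labels was not analysed here. Since Sim is made by few cells of the embryo, and embryos of all these ages were collected together, a peak cannot be assigned to a cell type or an age.

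Sim belongs to the bHLH-PAS family, transcription factors with a DNA-binding helix-loop-helix next to a dimerisation domain. It pairs with Tango and is best known for directing the fate of midline cells in the embryonic nerve cord, a row of neurons and glia that secrete guidance cues and ligands of the EGF receptor. The Sim and Tango dimer is known to bind the CNS midline element, whose core reads ACGTG. Many homeodomain factors are known to bind the sequence TAATTA.

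The bases under the members came from the RefSeq copy of the dm6 assembly, on the + strand, as the summit base with 50 bases on either side. Capitals mark ACGTG, its reverse complement CACGT, and TAATTA. The first set is shown because these are the strongest members whose windows touch no annotated untranslated region, 3 for each direction. The replicate 1 sites are nearest to kuk (chr3R:17080846-17080946), a nuclear envelope gene, CG6333 (chr3L:17485545-17485645) and CG43121 (chr3L:14652660-14652760). The replicate 2 sites are nearest to CG9663 (chr2L:3302354-3302454), CG6204 (chr3R:24193583-24193683) and Ino80 (chr3R:19403222-19403322), which encodes a chromatin remodelling ATPase. None of the 6 windows holds ACGTG. The one near CG6204 holds an overlapping pair of TAATTA.
kuk: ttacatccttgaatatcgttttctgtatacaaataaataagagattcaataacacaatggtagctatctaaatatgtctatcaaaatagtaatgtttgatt
CG6333: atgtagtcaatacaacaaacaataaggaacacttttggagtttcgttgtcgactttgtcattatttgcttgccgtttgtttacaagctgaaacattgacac
CG43121: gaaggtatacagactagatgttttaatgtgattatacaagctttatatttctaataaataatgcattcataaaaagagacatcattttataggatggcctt
CG9663: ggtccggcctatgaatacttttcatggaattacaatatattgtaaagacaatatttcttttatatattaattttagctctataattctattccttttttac
CG6204: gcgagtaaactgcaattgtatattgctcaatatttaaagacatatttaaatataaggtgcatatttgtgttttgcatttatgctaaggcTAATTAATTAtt
Ino80: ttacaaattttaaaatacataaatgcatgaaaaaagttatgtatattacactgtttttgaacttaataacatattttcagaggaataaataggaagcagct

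The second set is shown because these members lie at genes of midline cells. In replicate 1 alone they are at oc (chrX:8627298-8627398), aos (chr3L:16483938-16484038) and glec (chr3R:21855523-21855623), and none holds the core. In replicate 2 alone they are at sim itself (chr3R:13057270-13057370), S (chr2L:1074655-1074755) and D (chr3L:14174440-14174540). The windows of 2 further replicate 2 only members, at sli, are not printed, and neither holds the core. The sim window holds 2 copies of the core, 1 on each strand, the D window holds 1, and the S window holds none.
oc: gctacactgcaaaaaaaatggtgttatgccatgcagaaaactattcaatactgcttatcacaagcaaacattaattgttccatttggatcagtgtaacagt
aos: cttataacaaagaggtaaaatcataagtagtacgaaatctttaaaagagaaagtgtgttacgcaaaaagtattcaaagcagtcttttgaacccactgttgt
glec: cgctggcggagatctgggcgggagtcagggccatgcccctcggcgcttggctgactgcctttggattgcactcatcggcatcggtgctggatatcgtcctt
sim: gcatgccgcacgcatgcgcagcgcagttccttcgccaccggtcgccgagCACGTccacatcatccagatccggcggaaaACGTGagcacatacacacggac
S: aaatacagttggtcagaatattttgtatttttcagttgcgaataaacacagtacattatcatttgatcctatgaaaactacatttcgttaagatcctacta
D: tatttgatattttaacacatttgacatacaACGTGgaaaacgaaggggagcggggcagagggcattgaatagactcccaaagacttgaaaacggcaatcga

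The third set gives the strongest members with the core near the summit, with the same windows left out as in the first set. They are nearest to Ca-beta (chr2L:11207026-11207126), a calcium channel subunit gene, and Dus3 (chr2L:19758713-19758813) in replicate 1 alone, and to CG13917 (chr3L:1587622-1587722) and CG13898 (chr3L:802843-802943) in replicate 2 alone. A last pair, chosen after the values were seen, shows strong members of median GC content, 38.6% near CG32295 (chr3L:2531680-2531780) for replicate 1 alone and 31.7% near sima (chr3R:30061237-30061337) for replicate 2 alone.
Ca-beta: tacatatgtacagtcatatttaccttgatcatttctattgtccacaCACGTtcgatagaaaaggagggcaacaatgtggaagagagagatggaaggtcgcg
Dus3: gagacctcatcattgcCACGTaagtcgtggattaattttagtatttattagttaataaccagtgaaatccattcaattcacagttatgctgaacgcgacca
CG13917: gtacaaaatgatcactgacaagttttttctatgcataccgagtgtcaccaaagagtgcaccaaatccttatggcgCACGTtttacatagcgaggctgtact
CG13898: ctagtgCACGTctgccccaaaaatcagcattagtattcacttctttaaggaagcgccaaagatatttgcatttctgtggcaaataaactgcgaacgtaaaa
CG32295: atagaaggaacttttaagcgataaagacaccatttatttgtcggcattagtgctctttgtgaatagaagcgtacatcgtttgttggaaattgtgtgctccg
sima: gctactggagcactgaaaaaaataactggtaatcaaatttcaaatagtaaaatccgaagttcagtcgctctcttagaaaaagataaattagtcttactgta

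Most peaks missing from a replicate's thresholded list were still present in its ranked list, the longer list of candidates before the threshold. All 198 replicate 1 only peaks overlapped a ranked peak of replicate 2, and 718 of the 736 replicate 2 only peaks (97.6%) overlapped one of replicate 1. Nearly all optimal peaks did so, 2677 of 2682 for the ranked list of replicate 2 and 2654 for that of replicate 1. Presence in a ranked list is therefore not particular to the members. The ranked lists are long, with 96901 peaks in replicate 1 and 88657 in replicate 2. The thresholded lists hold 1071 and 1676 peaks.

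The signal value, the strength the authors' peak caller gave each peak, was used to describe this. At replicate 1 only peaks the median was 43.2 in replicate 1 (24.7 to 89.8) and 32.0 in replicate 2 (11.7 to 74.7). At replicate 2 only peaks it was 29.3 in replicate 1 (9.68 to 58.7, n = 718) and 47.3 in replicate 2 (19.5 to 107). The ranges of the own and the missing replicate overlapped in both directions. The scale of these values is not stated for the individual lists, so they are set side by side, and their ratios below are descriptions only.

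The median of the ratio of own to missing signal was 1.40 (quartiles 1.17 and 1.72) for replicate 1 only peaks and 1.72 (quartiles 1.38 and 2.12) for replicate 2 only peaks. Replicate 2 values ran higher over all optimal peaks, at a median of 55.7% of the sum of both values. The ratios were not adjusted for this, so their order does not show which direction was the more uneven. The highest ratios, 5.04 at a peak near jing, a zinc finger factor gene, and 6.79 near Ufd4, a ubiquitin ligase gene, were picked out after the values were seen. In 22 of the 198 and 33 of the 718 the value was higher in the replicate that lacked the peak. At aos, for example, the replicate 1 only peak had 30.4 in replicate 1 and 39.1 in replicate 2. These counts also take no account of the higher values of replicate 2, so they are not compared between the directions.

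**Figure D1:**
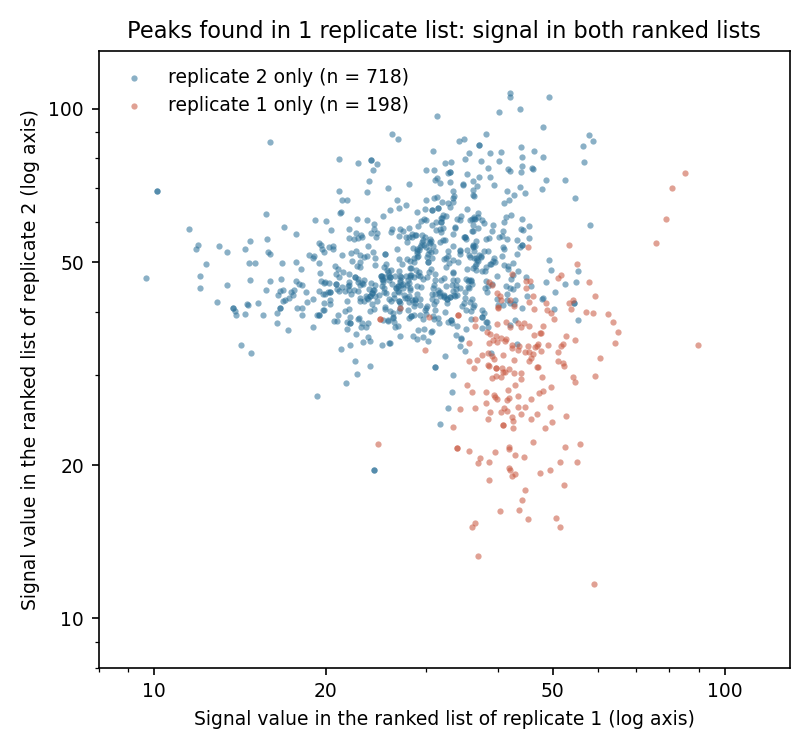
Signal value of each member in the ranked list of replicate 1 (horizontal, log axis) and of replicate 2 (vertical, log axis). Each point is 1 peak, 198 from replicate 1 alone and 718 from replicate 2 alone, without 18 that had no ranked peak in replicate 1. Most points of the groups lie on either side of the diagonal of equal values, as each group was chosen by the calls of 1 replicate. Across it lie 22 of the 198 and 33 of the 718. Replicate 2 values ran higher over all optimal peaks, so the diagonal is not the usual balance of the lists. The groups meet between about 30 and 60 on both axes.

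Pooled signal values were close to the sum of the values of both replicates. Pooled signal divided by that sum had a median of 0.998 at replicate 1 only peaks, 0.987 at replicate 2 only peaks and 0.999 at peaks of both lists. Of the sum, the missing replicate supplied a median of 41.7% at replicate 1 only peaks (from replicate 2) and 36.7% at replicate 2 only peaks (from replicate 1). At peaks of both lists, replicate 1 supplied 44.4% and replicate 2 supplied 55.6%.

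Both directions had similar pooled strength. The median pooled signal was 73.9 (2.85 to 166) for replicate 1 alone and 75.7 (2.04 to 171) for replicate 2 alone, compared with 135 for peaks of both lists and 59.4 for peaks of neither. In 4 equal bins of the optimal list from the weakest to the strongest, replicate 1 only peaks numbered 24, 82, 85 and 7, and replicate 2 only peaks 123, 236, 328 and 49. Members were therefore mostly of middle strength. The few below 30, 6 and 26 peaks, all overlapped another optimal peak, so that several optimal peaks share 1 replicate peak.

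The score of a ranked peak is a rescaled irreproducible discovery rate (IDR). The lowest score in each thresholded list was 830, where the IDR is 0.0100. At 830 or more were 1102 ranked peaks of replicate 1 and 1731 of replicate 2. The thresholded lists hold fewer, 1071 and 1676, and the cause is not given. In the missing replicate, 66 of the 198 replicate 1 only peaks scored at least 540 but below 830, 131 scored lower and 1 scored 830 or more. For replicate 2 only peaks these counts were 202, 515 and 1, out of 718. In their own replicate 87 of 198 and 493 of 736 had the top score of 1000.

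A low score did not always go with a low signal. In the missing replicate, 33 of 198 and 87 of 736 members had a signal rank inside the length of that replicate's thresholded list, and 12 and 36 of these scored below 540. At or above the median signal of the missing list were 3 and 11 members, of which 2 and 7 scored below 540. The peak near Tab2, an adaptor gene of immune signalling, had 78.9 in replicate 1 and 60.7 in replicate 2, with a score of 41 in replicate 2. The peak near CG9663 had 78.6 in replicate 2 and 56.7 in replicate 1, with a score of 37 in replicate 1. Either peak thus lacked a high score in the replicate where its signal was still above the median of that replicate's list, 55.4 in replicate 2 and 53.7 in replicate 1.

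At the threshold itself, the lowest scoring members of replicate 1 were near Hr3 (831), lola (832) and CG3104 (832), and the optimal peaks just below it were near CG7484 (829), jvl (828) and CG30114 (828). Their signal in replicate 1 was 39.5, 29.9 and 39.2 inside, and 56.5, 38.5 and 35.7 outside. In replicate 2 the peaks inside were near CG30159 (830), CG14853 (831) and CG42382 (831), with signal values of 37.0, 33.8 and 41.6. Just outside were tara (829), CG13405 (828) and Tak1 (828), with 43.4, 37.3 and 31.1. Values on both sides of the threshold overlapped.

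The conservative list, which the authors also deposited, held a peak at 79.9% of all optimal peaks. It did so for 159 of 198 replicate 1 only peaks (80.3%, exact 95% interval 74.1% to 85.6%) and 564 of 736 replicate 2 only peaks (76.6%, 73.4% to 79.6%). Both shares were near that of the whole list. Peaks of both replicates reached 99.9% and peaks of neither reached 64.6%.

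The strongest replicate 1 only peak, in an intron and nearest to kuk, had a pooled signal of 166, with 85.2 in replicate 1 and 74.7 in replicate 2. The next, in an intron of Eno, the glycolytic enzyme enolase, had 151, with 80.8 and 69.9. Those near Tab2 (141), CG6333 (126) and CG43121 (118) followed, and the last lies inside dlp, a glypican gene. These 5 also had the highest signal in replicate 2 of all 198. The peak near larp, an RNA-binding protein gene, stood apart, with 89.8 in replicate 1, the highest of the group, and 34.4 in replicate 2.

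The other strong replicate 1 only peaks ran from 111 down to 100.8. They were near bgcn, a germline differentiation gene, CG3092, Ca-beta, msn, a protein kinase gene, CG33752 (inside the Netrin receptor gene fra) and Hrb27C, an RNA-binding protein gene. The weakest, near E(spl)m3-HLH (2.85), His3.3B (3.26) and Piezo (4.33), had replicate 1 values of 39.8, 40.8 and 49.7, and each overlapped another optimal peak.

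The strongest replicate 2 only peak, near CG9663, had a pooled signal of 171. The next lay near CG10413 (151.7), 106 bp from its transcription start site (TSS), and near tst (151.7), 115 bp from its TSS, a gene for an RNA helicase. Near CG6204 was the highest replicate 2 value of the group, 107, beside 42.0 in replicate 1. Ino80 (145) had the highest replicate 1 value, 58.7, beside 86.3 in replicate 2. After these in replicate 1 came CG13917 (58.1), CG10413 (57.7), CG9663 (56.7) and CG7484 (56.5).

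The rest of the 12 strongest replicate 2 only peaks ran from 143 to 133. They were near unc-119, CG7737, CG7484 (also within 5 kb of Krn, which encodes an EGF receptor ligand), eff, a ubiquitin-conjugating enzyme gene, CG7220, CG17974 (inside the BMP-binding gene cv-2) and apt, a transcription factor gene. Of the 18 without any ranked peak in replicate 1, the strongest were near unc-5, a Netrin receptor gene (pooled signal 78.6, replicate 2 41.0), mtgo (71.6 and 52.0) and be (69.4 and 60.2). The weakest were near CG11550 (2.04), EcR, the ecdysone receptor gene (2.12), and MED4 (2.69).

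Introns held similar shares of both directions, 51.5% of replicate 1 only summits (exact 95% interval 44.3% to 58.7%) and 50.7% of replicate 2 only summits (47.0% to 54.4%). Within 500 bp of a TSS lay 34.8% (28.2% to 41.9%) and 38.7% (35.2% to 42.3%), beside 40.3% of all optimal summits. With the score threshold at 540 this order turned, to 37.7% and 37.4%. More than 10 kb from a TSS lay 15.7% and 12.2%. The intervals cover counting error only, since neighbouring peaks share their source.

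The shares in coding sequence, in 5' UTRs and between genes were farther apart. Coding sequence held 8 of 198 replicate 1 only summits (4.04%, 1.76% to 7.81%) and 6 of 736 replicate 2 only summits (0.815%, 0.300% to 1.77%). Peaks of both lists had 0.484% there and peaks of neither 5.10%. Summits in 5' UTRs made up 12.6% (8.34% to 18.1%) and 7.47% (5.68% to 9.62%). Between genes lay 26.8% (20.7% to 33.5%) and 36.4% (32.9% to 40.0%). In each of these 3 classes the intervals of the directions overlapped slightly. In 3' UTRs were 1.52% and 1.77%, and in other exons 3.54% and 2.85%.

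**Figure D2:**
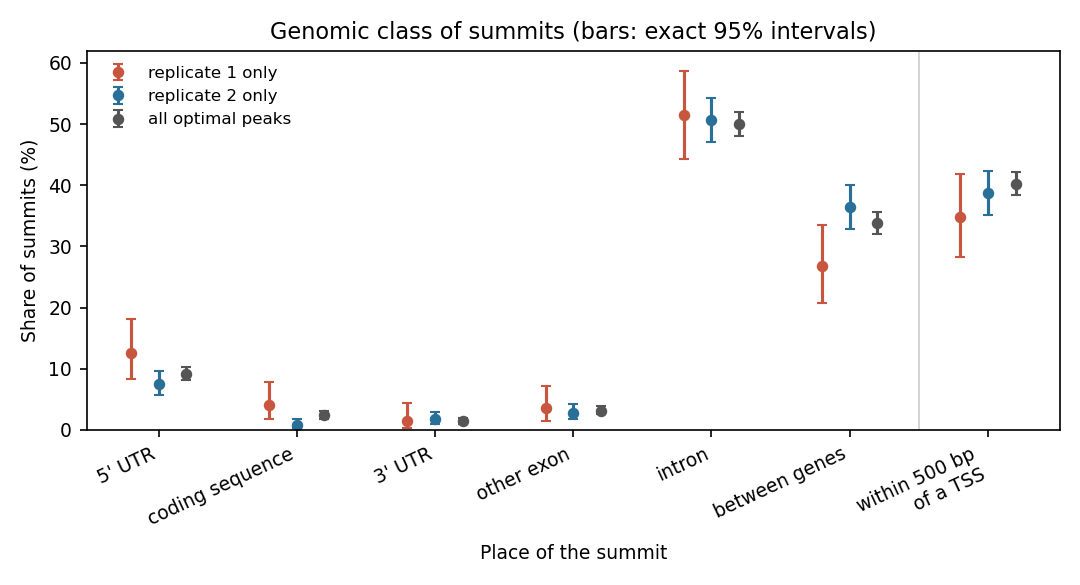
Share of summits (vertical, %) in each genomic class and, to the right of the line, within 500 bp of a TSS. Points are replicate 1 only peaks (n = 198), replicate 2 only peaks (n = 736) and all 2682 optimal peaks, and bars are exact 95% intervals. Intron shares lie near 50% in all 3, and the share between genes is 26.8% for replicate 1 alone and 36.4% for replicate 2 alone.

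Chromosome arms were shared out alike. Arm 3L held 22.7% and 21.6%, 3R 21.2% and 21.2%, 2L 19.2% and 21.7%, 2R 18.7% and 17.8%, and X 18.2% and 17.5%, for replicate 1 and replicate 2 alone. Every exact interval overlapped its counterpart. The small arm 4 held 0 and 1 member, the latter near PlexA. For replicate 1 alone the exact upper bound of that share is 1.85%.

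The base composition at the summits differed between the directions. GC content of the summit base and 50 bases on either side averaged 39.3% (SD 10.7, n = 198) at replicate 1 only summits and 33.8% (SD 9.78, n = 736) at replicate 2 only summits, a difference of 5.53 percentage points between means of widely overlapping distributions. Below 30% GC were 25.3% (19.4% to 31.9%) and 41.0% (37.5% to 44.7%) of members. Above 45% were 31.3% (24.9% to 38.3%) and 14.1% (11.7% to 16.9%). Peaks of both lists averaged 32.2% and peaks of neither 40.1%. The replicate 1 only peaks thus lay near the peaks of neither list, and the replicate 2 only peaks near those of both.

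The difference was local to the summit. In windows 300 bp away the means were 42.1% and 44.0%, with replicate 2 alone now the higher, and over 1 kb they were 41.7% and 41.9%. As whole lists, the thresholded peaks of replicate 1 averaged 34.4% and those of replicate 2 33.2%.

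**Figure D3:**
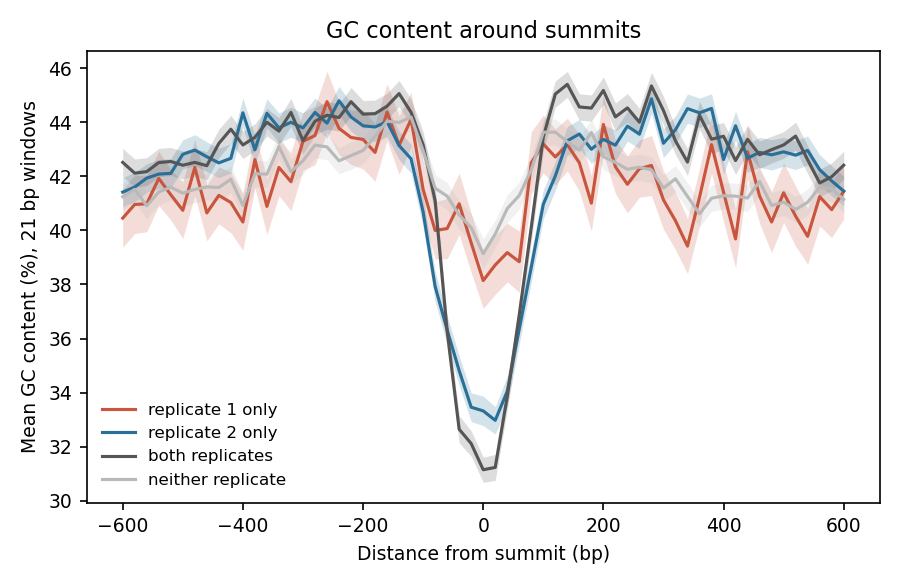
Mean GC content (vertical, %) in windows of 21 bp against the distance from the summit (horizontal, bp), for the 4 groups of optimal peaks. Bands are the standard error over peaks, which are not replicates. All groups dip at the summit, and the dip of replicate 1 only peaks is the shallower of the directions, next to the peaks of neither list.

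The order was the same in most subsets of strength and position. In the same 4 bins of pooled signal, from the weakest to the strongest, the means were 46.7% and 37.6%, 40.8% and 34.9%, 36.2% and 32.2%, and 33.9% and 28.7%, the last over 7 and 49 peaks. Near a TSS they were 40.5% and 34.7%, and farther away 38.6% and 33.2%. Between genes they were 40.6% and 32.7%, and in introns 36.0% and 32.7%. In coding sequence the order was the other way, 53.5% and 56.6%, over 8 and 6 peaks. Among members in the conservative list they were 37.9% and 33.5%, and among the others 44.9% and 34.4%.

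By arm, the means for replicate 1 and replicate 2 alone were 41.5% and 33.3% on 2L, 43.4% and 35.6% on 2R, 37.5% and 32.9% on 3L, 39.5% and 33.9% on 3R, and 34.7% and 33.3% on X. On X the gap was the smallest of the 5 arms. The part of library preparation, sequencing or peak calling in this pattern was not tested.

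**Figure D4:**
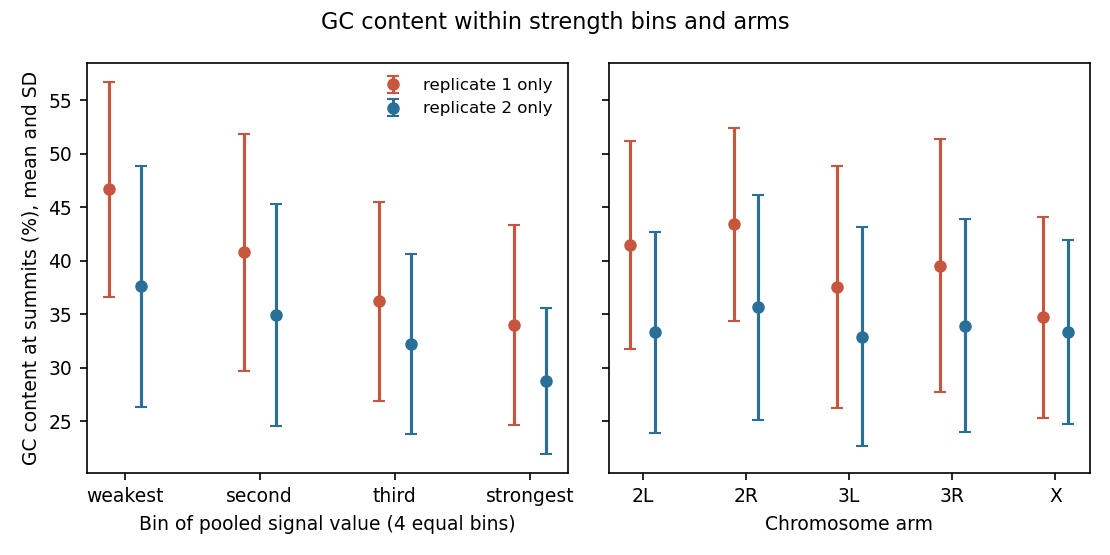
GC content at summits (vertical, %) as mean and SD over peaks, in 4 equal bins of pooled signal (left) and by chromosome arm (right), for replicate 1 only and replicate 2 only peaks. The replicate 1 only mean is the higher in each of the 4 bins and on each of the 5 arms shown, with 34.7% beside 33.3% on X.

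The same order appeared among peaks of both lists and of neither list, which are not members. The same replicate lists define those groups and the bins use the same signal values, so this too is a description. Optimal peaks with a value in both ranked lists were divided into 5 equal bins by the share of the summed signal that came from replicate 1. Among peaks of both lists, mean GC was 30.1% (SD 7.97, n = 166) in the bin with the lowest share and 36.0% (SD 10.2, n = 165) in that with the highest. Among peaks of neither list it was 37.9% (SD 11.2, n = 182) and 43.8% (SD 11.6, n = 181). Over all optimal peaks, which include the members and so partly restate their difference, it ran through 33.4%, 34.0%, 34.7%, 36.6% and 41.0%, while the median pooled signal was 75.6 in the lowest bin and 65.5 in the highest. Among peaks of both lists the median pooled signal was 149.7 in the lowest bin and 118.4 in the highest. Among peaks of neither list it was 58.1 and 57.2. The part of peak strength in this order was not tested. These bins were formed after the data were seen, and the peaks come from the same 2 libraries.

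**Figure D5:**
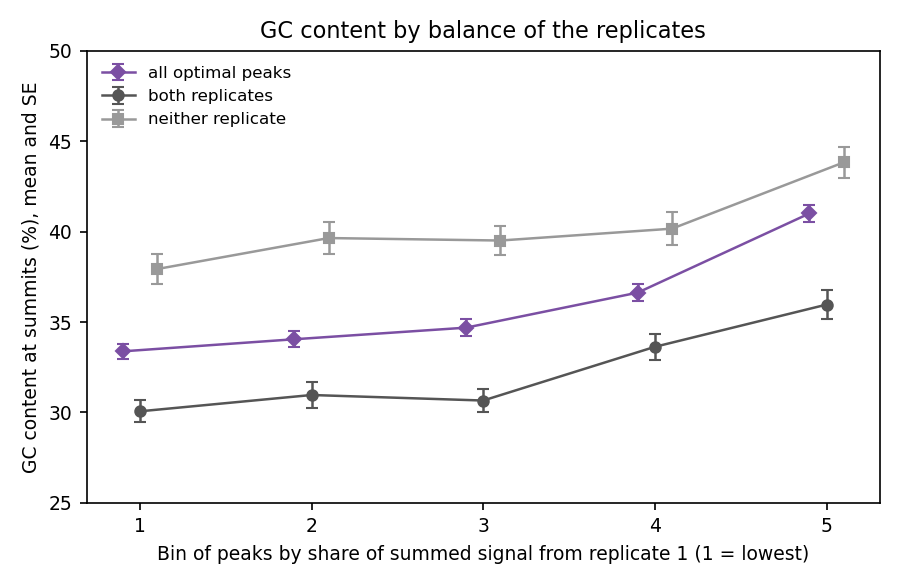
Mean GC content at summits (vertical, %) in 5 equal bins of peaks by the share of summed signal from replicate 1 (horizontal, 1 = lowest share), for all optimal peaks (members included), peaks of both lists and peaks of neither. Bars are the standard error over peaks. The highest bin has the highest mean in each of the 3 sets, 41.0%, 36.0% and 43.8%.

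Sequence patterns within 50 bp of the summit were counted on both strands. ACGTG was present at 17 of 198 replicate 1 only summits (8.59%, 5.08% to 13.4%) and 45 of 736 replicate 2 only summits (6.11%, 4.49% to 8.10%), beside 7.27% of all optimal summits. In windows of equal length 300 bp away it was in 8.33% and 9.58%. TAATTA was at 7.58% (4.30% to 12.2%) and 11.4% (9.21% to 13.9%), beside 9.06% of all, and in 7.07% and 5.30% of the distant windows. For both patterns the intervals of the directions overlapped, and within 100 bp the order for ACGTG turned, to 13.1% and 14.0%.

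GAGAG was at 15.7% and 12.1% (all optimal summits 12.8%). TGTGTG was at 10.1% (6.28% to 15.2%) and 6.11% (4.49% to 8.10%), beside 7.79%, and CATATG, an E-box, at 4.55% and 4.08%, beside 4.66%. The AT-rich TAATTA had the higher share in replicate 2 alone, where GC content was lower, and the other patterns had it, within 50 bp, in replicate 1 alone. A match is a description of the bases and not a binding site.

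Genes with a member summit inside them or within 5 kb numbered 396 for replicate 1 alone, 2.84% of the 13945 protein-coding genes, and 1470 for replicate 2 alone, 10.5%. Members of both directions lay at 87 genes, 22.0% of the first set and 5.92% of the second. By nearest TSS, 183 and 638 genes were named, with 40 in common. Genes with a member were longer than the median of 2166 bp over all protein-coding genes, at 3850 and 3456 bp.

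Midline genes had members in both directions. Of the 14 listed, 3 (21.4%) carried a replicate 1 only peak and 4 (28.6%) a replicate 2 only peak, beside the 2.84% and 10.5% above. An optimal peak of any group lay at 8 of the 14, so a high share is not particular to the members. Gene length was not taken into account in this or the later lists, although genes with a member were longer. None carried both. At the sim gene itself the replicate 2 only peak lay in an exon of a noncoding transcript 435 bp from a TSS, with 29.9 in replicate 1 and 53.5 in replicate 2 and a GC content of 63.4%. The ligand gene sli, whose product Slit repels axons, had 2 replicate 2 only peaks. The one in its intron had 42.3 in replicate 1 and 61.9 in replicate 2, and the other, nearest to Rif1, had 28.0 and 41.9. S, whose product Star acts in the transport of EGF receptor ligands within the cell, had 27.6 and 56.1. D, a Sox factor gene, had 31.7 and 43.6.

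In the other direction, aos encodes the secreted EGF receptor inhibitor Argos. Its replicate 1 only peak, in an intron 338 bp from the TSS, had 30.4 in replicate 1 and 39.1 in replicate 2, and its score was 878 in the first and 522 in the second. The homeodomain gene oc had 45.5 and 41.7, with a replicate 2 score of 822, just under the threshold. At glec, which encodes a carbohydrate-binding surface protein, the peak lay in coding sequence and had 38.4 and 33.2. At these genes the values of the replicates were closer than at the replicate 2 only peaks of sim, sli, S and D. Because replicate 2 values ran higher over all optimal peaks, this is not read as a trait of these genes.

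Among 12 genes of the bHLH-PAS family, 3 (25%) carried replicate 1 only peaks and 3 (25%) replicate 2 only peaks, beside 2.84% and 10.5% of all protein-coding genes. The tracheal regulator trh had 44.8 in replicate 1 and 45.8 in replicate 2, with a score of 244 in replicate 2. The coactivator gene tai had 47.2 and 34.6. The gene sima, which encodes the hypoxia factor subunit, held both directions. Its replicate 1 only peak in coding sequence had 36.1 and 15.1 at 62.4% GC, and its replicate 2 only peak in an intron had 36.8 and 70.6 at 31.7% GC. Met, a juvenile hormone receptor gene, had 26.9 and 50.8, with the nearest TSS at Ptp10D.

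Of 14 EGF receptor pathway genes, 3 (21.4%) carried replicate 1 only peaks and 5 (35.7%) replicate 2 only peaks, beside 2.84% and 10.5% of all genes. Krn had the strongest (56.5 in replicate 1 and 84.4 in replicate 2), followed by the transcription factor genes pnt (41.8 and 49.0) and aop (36.4 and 50.9) and by edl, an inhibitor gene of this pathway's factors. At edl a replicate 1 only summit (44.6 and 33.3) lay 815 bp from a replicate 2 only summit (32.3 and 43.0). Of 16 Notch pathway genes, 1 (6.25%) and 5 (31.2%) carried such peaks, and E(spl) genes share some of them. The coactivator gene mam had 48.6 in replicate 1 and 45.6 in replicate 2, yet a score of 45 in replicate 1. E(spl)mbeta-HLH had 34.4 and 60.4, and E(spl)mdelta-HLH and E(spl)mgamma-HLH share 1 peak (43.4 and 48.1).

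Axon guidance genes numbered 1 and 5 of 15 (6.67% and 33.3%), beside 2.84% and 10.5% of all genes. The receptor gene fra held a replicate 1 only peak (53.8 in replicate 1 and 40.4 in replicate 2) and a replicate 2 only peak (46.3 and 82.6), and PlexA, a Semaphorin receptor gene, had 36.7 and 55.1. The remaining patterning lists had 2 and 1 of 13 for dorsoventral genes (15.4% and 7.69%), 1 and 1 of 10 for trachea, and 1 and 2 of 19 for segmentation and Hox genes. The trachea gene in replicate 1 alone is trh, already counted in the bHLH-PAS list. For trachea (10% and 10%) and segmentation (5.26% and 10.5%) the replicate 2 shares were near the background. Of these, ths, an FGF gene, had 39.9 and 37.9, and brk, a repressor gene of BMP targets, had 42.4 and 33.9, both in replicate 1 alone. In replicate 2 alone were sog, a BMP antagonist gene (25.9 and 40.1), and bnl, a tracheal FGF gene (23.9 and 31.3). The Hox gene lab had 45.7 and 26.9 in replicate 1 alone. In replicate 2 alone the Hox genes Antp held 4 peaks, the strongest with 34.4 and 52.6, and Ubx 1 (26.2 and 39.1).

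Markers of cell types other than the midline were also present among members. Counts for replicate 1 and replicate 2 alone were 0 and 5 of 9 for glia, 0 and 2 of 12 for neurons, 2 and 5 of 14 for muscle, 1 and 3 of 10 for hemocytes and fat body, 0 and 3 of 8 for epidermis, 0 and 1 of 6 for gut endoderm, and 2 and 2 of 7 for germline. Over all genes the shares were 2.84% and 10.5%. Each list is small, so a count of 0 beside 2.84%, or 1 or 2 genes beside 10.5%, shows little. The glial peaks were near pnt, loco (17.8 in replicate 1 and 46.0 in replicate 2), gcm2 (22.9 and 45.2), gcm (25.9 and 34.7) and, outside the naming rule, nrv2. The peaks of gcm2, gcm and nrv2 had their nearest TSS at Trx2, Mtpalpha and nrv1. The EGF receptor list also counts pnt, and the list of hemocytes and fat body also counts gcm.

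The neuronal peaks were near Gad1, the enzyme of GABA synthesis (54.8 and 45.6), and elav (35.8 and 41.8), and their scores in replicate 1 were 823 and 36. Their nearest TSS were at wit and CG4293. Muscle members were near how (36.2 and 67.8), mbc (20.6 and 53.7), kirre and rols. The last pair, both needed for myoblast fusion, held both directions. At rols the replicate 1 only peak had 51.4 and 20.3 and the replicate 2 only peak 31.0 and 38.6, the latter with its nearest TSS at CG6793.

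Near Lsp2, a fat body storage protein gene, the values were 35.4 and 74.3, and near sn, an actin-bundling protein gene, 33.4 and 69.1. The Lsp2 peak lay 123 bp from a TSS of DEF8. The epidermal genes shg, which encodes E-cadherin, and ovo had 24.5 and 56.0, and 30.8 and 44.5. The posterior patterning gene cad had 35.2 and 40.4, with the nearest TSS at Pomp. Germline members were near aub (51.6 and 47.1, at the TSS of RpL9) and osk (52.6 and 21.7) in replicate 1 alone and near piwi (34.9 and 56.0) and nanos (19.7 and 53.0) in replicate 2 alone. All 4 had their nearest TSS at another gene.

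Of 14 ribosomal protein genes, 1 carried a replicate 1 only peak, RpL9. A replicate 2 only peak was carried by 2, RpL4 (34.0 and 60.8) and RpS3 (28.9 and 35.3, with the nearest TSS at Sec13). These are 7.14% and 14.3%, beside 2.84% and 10.5% of all genes. Of 9 heat shock genes, 3 and 3 did (33.3% each). Those counts rest on 1 peak in each direction, because Hsp22, Hsp23, Hsp26 and Hsp67Bc lie side by side. The replicate 1 only peak, nearest to Hsp22, had 36.4 and 31.0, and the replicate 2 only peak, nearest to Hsp26, had 23.6 and 60.4.

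Most genes with a member held 1 in a given direction. Of the 396 genes with replicate 1 only peaks, 34 held 2 or more, and of the 1470 with replicate 2 only peaks, 182 did. The most replicate 1 only peaks, 3 each, were at CG6983, Unr, an RNA-binding protein gene, and cv-c. Next, with 2 each, were Bap111, a chromatin remodeller subunit gene, and CG11815 among others. For replicate 2 alone they were at mtgo (6), CG1677 (5), and Antp, CG46458, CHES-1-like, Raf and ush (4 each). Overlapping peaks add to such counts, since 10 of the 198 and 54 of the 736 members overlapped another of their own direction. None of the 6 members at mtgo was joined by a replicate 1 only peak or by a peak of both lists.

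Both directions met at CG1677 (2 replicate 1 only and 5 replicate 2 only peaks), ush (2 and 4), kirre (2 and 3), E(spl)m2-BFM (2 and 2), cv-c (3 and 1), and EcR, dlp and dnc (1 and 3 each). The gene ush encodes a partner of GATA factors. Its replicate 1 only peaks had 42.1 in replicate 1 and 42.1 in replicate 2 at one summit, and 46.9 and 25.2 at the other. Its strongest replicate 2 only peak, 1320 bp from the first of these, had 26.1 and 89.4.

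Opposite members could lie close together. The nearest summits were 559 bp apart between slv and sut1, then 669 bp at Gli, a glial junction gene, 686 bp at grim, a cell death gene, and 803 bp at hng3, a set chosen after the values were seen. At Gli the replicate 1 only peak had 41.9 in replicate 1 and 30.8 in replicate 2, and the replicate 2 only peak had 28.6 and 42.2. Within 5 kb of a replicate 2 only summit lay 29 of the 198 replicate 1 only summits (14.6%), and 34 (17.2%) lay within 5 kb of a summit of both lists. For summits of neither list it was 20 (10.1%). Of the 736 replicate 2 only summits, 3.94% lay within 5 kb of a replicate 1 only summit, 16.4% of one of both lists and 16.6% of one of neither. Closeness was thus not particular to opposite members, and these shares depend on the size of each group.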

How the data were processed

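Peak lists of 2 replicates and of both pooled were deposited by the authors in dm6 coordinates, per the labels. The deposited signal value is the strength given by the authors' peak caller, and the deposited score is a rescaled IDR, as the values show, with 830 the lowest in every thresholded list. The deposited offset of column 10 gave each summit. Fragments were sonicated to 200 to 800 bp, per the labels. The aligner and the caller of the peaks are not given in the sources used, and the depth is unknown, so no interval that needs it is reported.

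An optimal peak was a member when at least 1 bp overlapped a thresholded peak of exactly one replicate. Its signal and its score in a replicate are the highest among the ranked peaks that overlap it. Genes and TSS came from protein-coding transcripts of Ensembl release 115 (BDGP6, arm lengths as in dm6), and 2 listed genes were matched by a synonym. GC content and patterns were read within 50 bp of the summit and in windows of equal length 300 bp away. Shares have exact (Clopper-Pearson) 95% intervals for counting error only. No test was made, because each direction rests on 1 library. Membership and windows were first tested on simulated data. Alternatives varied the overlap, score threshold, list length, list, merging, TSS distance, window and gene extension.

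Named genes are those nearest to the 12 strongest and 3 weakest members, the 5 with the highest signal in the missing replicate, the 3 strongest absent from its ranked list, midline and bHLH-PAS genes, up to 4 genes of each other list, genes with the most members, and peaks at the threshold. Sequences follow the same rule, without windows that touch a UTR or lie on arm 2R. The members and lists were chosen with earlier results of these data known. Computations used Python 3.11.15, numpy 2.4.6, pandas 2.3.3, scipy 1.17.1 and matplotlib 3.10.9.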

Additional observations from a re-analysis of the deposited data

How the results depend on the processing

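Over all results, 67 values were recomputed under other settings, and only some of these concern the GC difference. In each of those the GC difference kept its sign. It ranged from 3.92 (conservative list) to 6.70 percentage points (lists of equal length) beside 5.53. The counts moved with the threshold. With replicate lists at score 1000, replicate 1 only peaks numbered 129, and with ranked lists at score 540 they numbered 313. With lists of equal length they numbered 293 and replicate 2 only peaks 351, beside 198 and 736. Cutting the lists to 1 length itself draws these numbers together. The part of list length in the unequal numbers was not tested. The order of the directions turned in 2 cases. The share near a TSS was 37.7% and 37.4% with ranked lists at score 540, beside 34.8% and 38.7%, and ACGTG was at 13.1% and 14.0% within 100 bp, beside 8.59% and 6.11%. Shares near a TSS followed the distance, at 21.7% and 25.5% within 200 bp and 43.9% and 48.5% within 1000 bp. ACGTG was at 3.03% and 2.85% within 25 bp. TAATTA was at 2.53% and 6.66% within 25 bp and at 9.09% and 16.8% within 100 bp. Mean GC was 41.6% and 35.6% at score 540, 35.8% at replicate 2 only summits within 100 bp and 31.5% there with lists of equal length. Genes fell to 209 and 772 with 1 kb either side, and to 183 and 638 by nearest TSS. In all, 46 values moved by less than their error or by under 1.5 times and 21 by more. Merged peaks and the GC difference were added after seeing the data. Leaving out a replicate was not run, because membership needs both lists. No paired analysis was possible because the samples form 1 group and no result comes from a test. Unknown depth limits every statement about a missing peak.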

Other observations

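Noncoding genes were not compared in the report. A summit inside or within 100 bp of a gene of the ncRNA class was found for 14 of 198 replicate 1 only peaks (7.07%) and 56 of 736 replicate 2 only peaks (7.61%), beside 7.74% of peaks of both lists and 6.08% of peaks of neither. Near snoRNA genes were 0 and 1 members, near tRNA genes 0 and 1, and near rRNA and snRNA genes 0 in either direction. Peaks of neither list included 3 near tRNA genes.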
